A study of Mus musculus with 12 samples.

Results

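The genes described here are 10 alpha and beta tubulins of mouse liver, chosen by name from the 56748 genes of a count table. They are the beta tubulins Tubb2a, Tubb2b, Tubb4b, Tubb5 and Tubb6 and the alpha tubulins Tuba1a, Tuba1b, Tuba1c, Tuba4a and Tuba8. The names were chosen with the differences between genotypes already known, so the levels and fold changes of these 10 genes are a description and carry no test. RNA was sequenced from the livers of mice fasted for 24 h, namely 4 labelled ATF3;CPT2 liver-specific double KO (DKO), 4 labelled CPT2 liver-specific KO (SKO) and 4 labelled CPT1A/1B/2 triple floxed control (called WT here). Liver KOs in this study were C57BL6 mice with floxed alleles bred to Albumin-Cre mice, and Albumin-Cre acts mainly in hepatocytes, so most other cells of the liver keep these genes. The labels give no age or sex per liver. They do not say more than that each library came from its own liver sample, so the spreads given here are those between these samples. The WT livers carry floxed Cpt1a and Cpt1b alleles that the KO labels do not mention, and an effect of that background cannot be told apart from that of the deletions.

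An alpha and a beta tubulin pair as a heterodimer, and heterodimers add end to end into the wall of the microtubule, along which hepatocytes move vesicles, lipoproteins and organelles. Each family is encoded by several genes, called isotypes, whose proteins are close to identical apart from the tail that faces outward. Chaperones fold newly made tubulin and join the pair, and an excess of free heterodimers leads to decay of tubulin mRNA on the ribosome, a feedback that reads the first residues of the new protein. Cpt2 encodes the inner mitochondrial carnitine palmitoyltransferase needed for oxidation of long-chain fatty acids, and Atf3 encodes a stress-induced transcription factor of the CREB/ATF family.

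The libraries held 14710304 to 20030055 counts with a median of 17908507, and 3 counts, taken as the limit that a count of 0 allows, corresponded to 0.145 to 0.196 CPM (counts scaled to a common library size, which edgeR set for the 12 livers together by its TMM method). Cpt2 had 3658 to 4543 counts in WT livers, 1725 to 3098 in SKO livers and 1876 to 2468 in DKO livers, and no KO liver reached the WT range. Atf3 had 17 to 39 counts in WT livers, 259 to 1056 in SKO livers and 164, 177, 265 and 5 in DKO replicates 1 to 4. DKO replicates 1 to 3 thus lay above every WT liver in the gene that their label gives as deleted, and only replicate 4 lay below. The counts cover the whole gene and cannot separate a deleted part from the rest, so they do not check the deletion of Atf3, and DKO stands throughout for the libraries labelled so. DKO replicate 4 stood apart from the other DKO livers in Atf3 and in many tubulins. SKO replicate 3 and DKO replicate 4 also had 18063 and 20855 counts of Xist, a transcript of females, with 2 and 0 counts of Y-linked genes, whereas the other 10 livers had 1 to 19 counts of Xist. The paper speaks of male mice for this experiment, and these 2 libraries go against that. Sex, the Atf3 level and the tubulin level of DKO replicate 4 cannot be told apart, and fold changes and counts of DKO livers are therefore given with and without it for the members, the lists and the genes named from them.

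The start of each coding sequence is shown because the feedback on tubulin mRNA reads the protein as it leaves the ribosome, and the promoters of 3 members of the promoter table are shown as examples of a large (Tubb2a), a moderate (Tubb4b) and a small (Tuba4a) difference between genotypes. Coding sequences were read from GRCm38 transcripts (GENCODE M21) and are written as the start codon in lower case followed by 9 bases in capitals.
Tubb2a: atgCGCGAGATC
Tubb2b: atgCGAGAGATC
Tubb4b: atgAGGGAGATC
Tubb5: atgAGGGAAATC
Tuba1b: atgCGTGAGTGC
Tuba4a: atgCGCGAGTGC
Tuba8: atgAGGGAATGC
Tubb6 is not shown. Tuba1a and Tuba1c have the same first 12 bases as Tuba1b. The 4 beta tubulins read here end this stretch with ATC and the 5 alpha tubulins with TGC, and the codons before that differ among isotypes.

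The 3 promoters span the 250 bases before the start of the gene in RefSeq (GRCm38.p6), each on the minus strand of the genome and written 5′ to 3′ on the strand of the gene. Capitals mark the letters CCAAT (the CCAAT box), TATAAA (the TATA box) and TGACGTCA (the CRE, the element that CREB/ATF factors are known to bind), searched on both strands. The member with the highest level in SKO livers, Tubb2a, lies at chr13:34078009-34078258. Tubb4b lies at chr2:25224703-25224952 and Tuba4a, the alpha member that differed little between genotypes, at chr1:75219295-75219544.
Tubb2a: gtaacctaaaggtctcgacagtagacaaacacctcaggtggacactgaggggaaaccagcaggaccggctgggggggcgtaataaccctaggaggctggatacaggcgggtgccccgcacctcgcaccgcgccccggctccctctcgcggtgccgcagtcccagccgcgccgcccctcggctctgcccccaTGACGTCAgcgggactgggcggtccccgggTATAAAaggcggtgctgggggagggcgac
Tubb4b: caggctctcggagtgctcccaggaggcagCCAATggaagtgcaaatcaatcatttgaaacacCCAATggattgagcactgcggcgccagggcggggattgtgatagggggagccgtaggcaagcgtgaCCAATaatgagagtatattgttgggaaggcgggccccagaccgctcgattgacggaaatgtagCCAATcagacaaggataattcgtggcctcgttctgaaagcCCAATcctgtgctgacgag
Tuba4a: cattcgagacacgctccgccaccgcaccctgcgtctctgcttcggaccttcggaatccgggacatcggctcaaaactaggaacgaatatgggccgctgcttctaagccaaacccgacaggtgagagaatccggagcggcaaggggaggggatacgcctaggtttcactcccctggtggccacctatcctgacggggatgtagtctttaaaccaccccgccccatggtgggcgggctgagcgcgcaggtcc
The promoter of Tubb2a held a CRE that began 59 bases before the start and a TATA box that began 29 bases before it. That of Tubb4b held 5 CCAAT boxes, which began 221, 188, 122, 59 and 19 bases before the start, and that of Tuba4a held none of the letters searched. The promoter table holds 300 bases a gene, 250 before and 50 after the start, and matched 8 of the 10 members (Tubb2b and Tubb6 were not matched). Among these 8, Tubb2a alone held a CRE, beside 1.79% of all 32851 promoters. A CCAAT box was found in Tuba1a, Tuba1c, Tubb4b and Tubb5, beside 37.4% of all promoters. The TATA box was found in Tubb2a and, after the start, in Tubb4b, beside 13.6% of all promoters, and the AP-1 letters TGANTCA were found in 0 of the 8, beside 7.81%. None of these matches shows binding by a factor, and no match overlapped another.

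In SKO livers, the mRNAs of Tubb2a and Tubb2b were 1 or more orders of magnitude above WT, those of Tubb4b, Tubb5, Tuba1b and Tuba1c were at about 2.01 to 2.50 times the WT mean, and that of Tuba4a, the most abundant alpha tubulin of WT liver, stood at 1.11 times. DKO replicates 1 to 3 had the same order of sizes, whereas DKO replicate 4 lay near the WT livers for most members. In bulk RNA, fewer cells of a type and less RNA per cell cannot be told apart, and the same holds for more cells and more RNA per cell.

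**Figure D1:**
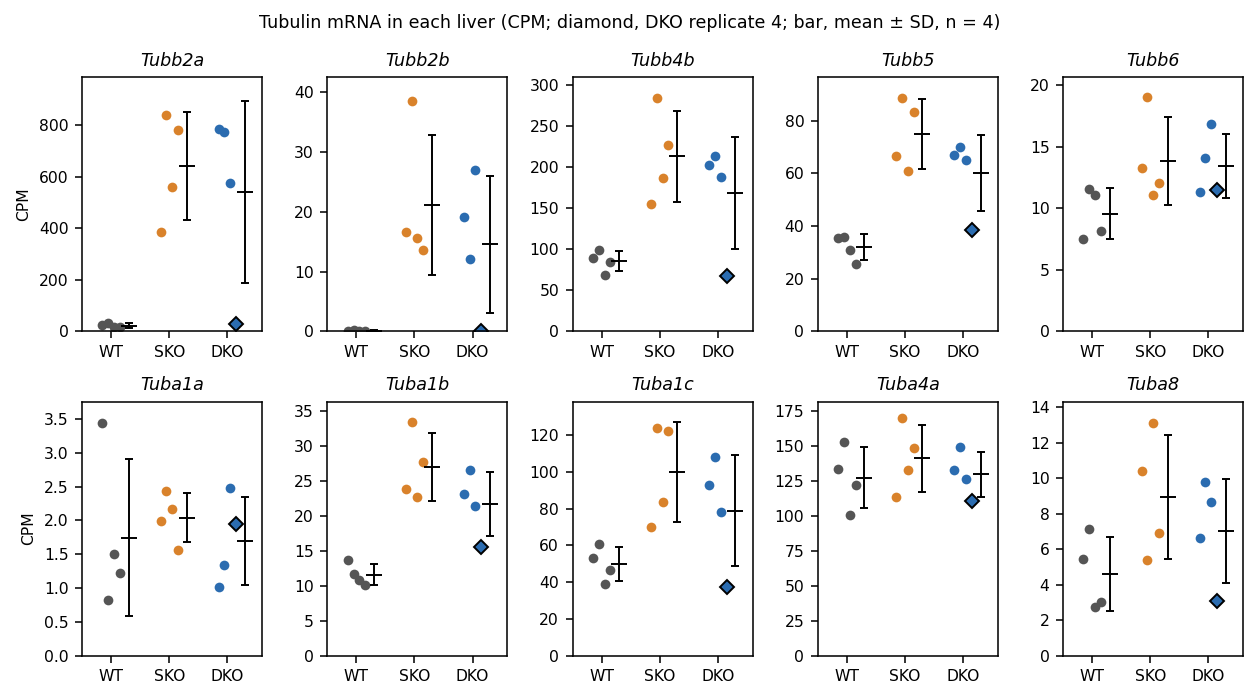
CPM of each tubulin gene in each liver by genotype (points, linear axis from 0 that differs between panels; the diamond is DKO replicate 4; the bar is the mean ± SD, n = 4). For Tubb2a the SKO livers sit between 385 and 842 CPM and DKO replicates 1 to 3 between 574 and 786, while the WT livers and DKO replicate 4 stay at or below 33.5; for Tuba4a the 3 genotypes overlap.

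Tubb2a (ENSMUSG00000058672, minus strand of chromosome 13 from 34258257 to 34261990 in the coordinates of the count table) encodes a beta tubulin that is best known from neurons. Its level was 26.0, 33.5, 16.7 and 16.0 CPM in WT replicates 1 to 4, and 385, 842, 561 and 782 CPM in SKO replicates 1 to 4. In DKO replicates 1 to 4 it was 786, 773, 574 and 30.1 CPM. Each SKO liver and DKO replicates 1 to 3 lay above every WT liver, and DKO replicate 4 lay inside the WT range. The mean was 23.1 ± 8.32 CPM (SD, n = 4) in WT and 642 ± 210 in SKO livers, a ratio of 27.9, and the fitted log2 fold change was 4.82 (standard error 0.33). In DKO livers it was 541 ± 354 CPM (SD, n = 4), or 711 ± 119 (SD, n = 3) without replicate 4, which is 30.8 times the WT mean.

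Tubb2b (ENSMUSG00000045136, minus strand of chromosome 13 from 34310731 to 34314449), the neighbour of Tubb2a at a distance of 48.74 kb, encodes a nearly identical beta tubulin that is prominent in the developing brain. It had 3, 3, 0 and 2 counts in WT livers, 259, 760, 302 and 244 in SKO livers and 396, 198, 522 and 1 in DKO livers. It was thus at or under 3 counts in the WT livers and in DKO replicate 4, and far above them in the other 7 livers. In CPM, SKO livers had 16.6, 38.5, 15.7 and 13.6, and DKO livers 19.2, 12.0, 26.9 and 0.0541. The ratio of pooled levels between SKO and WT was 184, with an exact 95% interval from 93.2 to 427 that covers counting error only, on 8 counts in WT and 1565 in SKO livers. Without replicate 4 the DKO livers were at 168 times WT (85.2 to 391). Because its level rests on the SKO and DKO livers, Tubb2b passed the filter on low counts in the comparison of SKO with WT but not in that of all 4 DKO livers with WT.

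Tubb2a and Tubb2b share sequence, so a part of the counts of one could stem from the other. Of the 100-base windows of the Tubb2a transcript, 36.9% were also found in other transcripts, mostly of Tubb2b, and of those of Tubb2b 27.7% were found elsewhere, mostly in Tubb2a. For every 100 counts on Tubb2a, Tubb2b had 0 to 0.692 counts in WT livers, 1.74 to 4.57 in SKO livers and 2.44, 1.56, 4.68 and 0.180 in DKO replicates 1 to 4. In each SKO liver and in DKO replicates 1 to 3 this number was above that of every WT liver, and in DKO replicate 4 it lay inside the WT range. How reads that fit several genes were counted is not given in the sources used here.

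Tubb4b (ENSMUSG00000036752, chromosome 2 from 25112172 to 25114714), a beta tubulin of most tissues, had 89.2, 98.6, 69.3 and 84.5 CPM in WT livers and 156, 283, 186 and 227 in SKO livers. In DKO livers it had 203, 214, 188 and 67.2 CPM. SKO livers and DKO replicates 1 to 3 did not overlap with WT, and DKO replicate 4 was below every WT liver. The log2 fold change between SKO and WT was 1.34 (standard error 0.19).

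Tubb5 (ENSMUSG00000001525, chromosome 17 from 36144813 to 36149198), the broadly expressed beta tubulin of dividing and resting cells, had 35.6, 35.8, 31.1 and 25.6 CPM in WT livers. It had 66.4, 88.6, 61.0 and 83.2 CPM in SKO and 66.8, 70.1, 65.2 and 38.6 CPM in DKO livers. All 4 livers of each KO genotype lay above every WT liver, with DKO replicate 4 the nearest to them. The log2 fold change was 1.24 (standard error 0.16) between SKO and WT and 0.92 (0.20) between DKO and WT, or 1.08 without DKO replicate 4.

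Tubb6 (ENSMUSG00000001473), a divergent beta tubulin, had 7.50 to 11.5 CPM in WT livers, 11.0 to 19.0 in SKO livers and 11.3 to 16.9 in DKO livers. The ranges overlapped, and the log2 fold change was 0.55 (standard error 0.21) between SKO and WT. Tubb5 and Tubb6 had no 100-base window in common with another transcript. Of Tubb4b, 30.6% of windows were shared, mostly with its pseudogene Tubb4b-ps1.

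Among the alpha tubulins, Tuba1b (ENSMUSG00000023004, chromosome 15 from 98829306 to 98832446), the main alpha isotype of many cell types, had 13.6, 11.6, 10.8 and 10.1 CPM in WT and 23.9, 33.4, 22.6 and 27.7 CPM in SKO livers. In DKO livers it had 23.0, 26.5, 21.4 and 15.5 CPM, and no KO liver of either genotype reached down to the WT range. Tuba1c (ENSMUSG00000043091, chromosome 15 from 98927772 to 98935991) had 53.0, 61.1, 39.1 and 46.5 CPM in WT and 70.3, 124, 83.8 and 122 CPM in SKO livers. In DKO livers Tuba1c had 92.8, 108, 78.0 and 37.3 CPM, so that all but replicate 4 lay above WT and replicate 4 below it. The log2 fold changes between SKO and WT were 1.24 (standard error 0.16) for Tuba1b and 1.02 (0.20) for Tuba1c.

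Tuba1a (ENSMUSG00000072235, chromosome 15 from 98847718 to 98851584), an alpha tubulin of neurons, was low in each genotype, with 0.828 to 3.44 CPM in WT livers, 1.56 to 2.43 in SKO livers and 1.02 to 2.47 in DKO livers, and the ranges overlapped. These 3 genes lie within 106686 bases of chromosome 15 and share much sequence. Other transcripts held 65.8% of the 100-base windows of Tuba1a, 73.0% of those of Tuba1b and 53.4% of those of Tuba1c, so the division of counts among them is uncertain. Tuba1b and Tuba1c were higher in SKO livers while Tuba1a, next to them in the genome, was at 1.17 times the WT mean. That value rests on WT replicate 1, which had 3.44 CPM of Tuba1a, while the other WT livers had 0.828 to 1.50. Without WT replicate 1 the log2 fold change of Tuba1a was 0.78 (adjusted p = 0.109, edgeR), against 0.22 with all livers.

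Tuba4a (ENSMUSG00000026202, minus strand of chromosome 1 from 75190872 to 75196509), an alpha tubulin whose gene does not encode the usual terminal tyrosine, had 133, 153, 101 and 122 CPM in WT, 113, 170, 133 and 148 in SKO and 133, 149, 126 and 111 in DKO livers. The 3 ranges overlapped, and the log2 fold changes were 0.16 (standard error 0.16) between SKO and WT and 0.04 (0.15) between DKO and WT. Stk16, whose annotated transcripts overlap those of Tuba4a, held 46.7% of its 100-base windows. Tuba8 (ENSMUSG00000030137, chromosome 6 from 121187655 to 121203813), an alpha tubulin known from testis and muscle, had 2.74 to 7.13 CPM in WT livers, 5.37 to 13.1 in SKO livers and 3.08 to 9.79 in DKO livers. The ranges overlapped between genotypes, and the log2 fold change was 0.97 (standard error 0.35) between SKO and WT.

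Levels of different genes were compared after division by the gene length in the count table (CPM per kb). In WT livers the order of mean levels was Tubb4b (40.9 CPM per kb), Tuba4a (34.4), Tuba1c (21.8), Tubb2a (14.3), Tubb5 (9.63), Tuba1b (6.15), Tubb6 (3.93), Tuba8 (2.03), Tuba1a (0.969) and Tubb2b (0.0499). Of neighbours in this order, Tubb4b and Tuba4a overlapped between livers, as did Tuba1c and Tubb2a, Tubb2a and Tubb5, Tubb6 and Tuba8, and Tuba8 and Tuba1a. In SKO livers Tubb2a stood at the head of the order with 399 CPM per kb, followed without overlap by Tubb4b with 102 and Tuba1c with 43.8. Tuba1c and Tuba4a (38.1) overlapped there. Tubb2b moved from the end of the order to a place between Tuba1b and Tubb6, and overlapped with both.

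Summed over the family, beta-tubulin mRNA was 68.8 ± 11.8 CPM per kb (SD, n = 4) in WT and 538 ± 163 in SKO livers, 7.82 times as much. In DKO livers it was 446 ± 260 (SD, n = 4), and 573 ± 75.8 (SD, n = 3) without replicate 4. Alpha-tubulin mRNA differed far less, with 65.4 ± 11.3 CPM per kb in WT livers, 101 ± 19.1 in SKO livers and 85.2 ± 21.0 in DKO livers (94.6 ± 11.2 without replicate 4, n = 3). Without Tubb2a and Tubb2b, the sum of the beta tubulins was 54.5 ± 6.71 in WT and 130 ± 31.2 in SKO livers, 2.39 times as much, while the alpha sum was 1.55 times as much.

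After division by gene length, the summed beta and alpha mRNAs of WT livers were near balance. Such a ratio rests on that division and on how reads that fit several genes were counted, which is not given. Other transcripts held 46.7% of the windows of Tuba4a, 53.4 to 73% of those of Tuba1a, Tuba1b and Tuba1c, and 12.5% of those of Tuba8. Of the windows of each beta tubulin they held 0 to 36.9%. The effect of this sharing on the WT ratio was not tested. The ratio of summed beta to summed alpha levels was 1.03, 1.07, 1.10 and 1.01 in WT replicates 1 to 4. It was 4.34, 5.84, 5.10 and 5.61 in SKO livers and 6.71, 5.75, 5.72 and 1.18 in DKO livers. DKO replicate 4 lay just above the WT range and the other KO livers lay far from it.

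**Figure D2:**
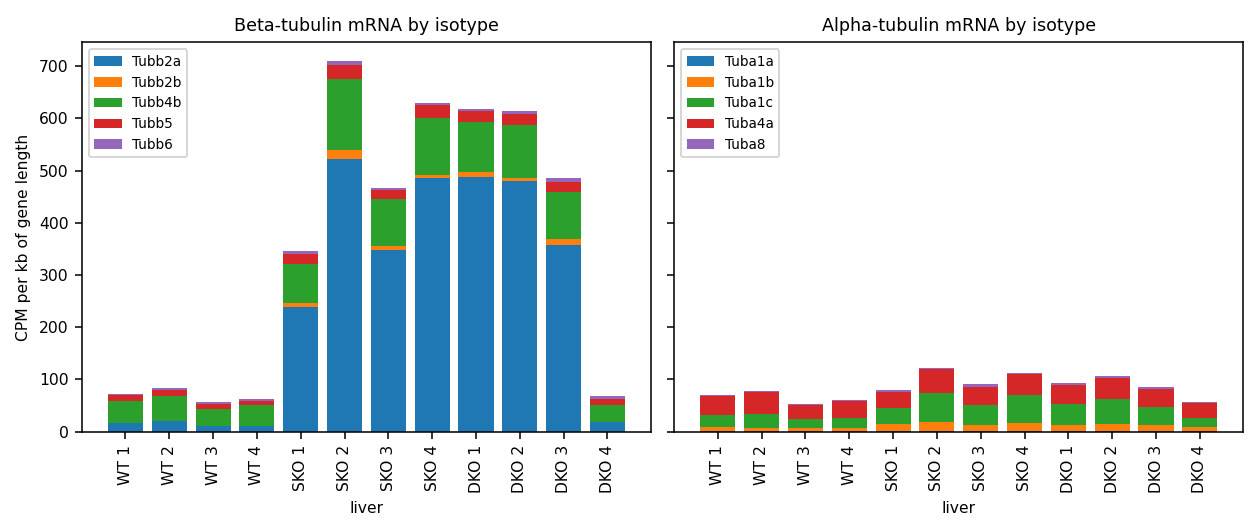
Summed level of the beta (left) and alpha (right) tubulins in each of the 12 livers, in CPM per kb of gene length on one linear axis from 0, stacked by isotype. The beta bars reach 346 to 710 in SKO livers and 485 to 618 in DKO replicates 1 to 3 through the Tubb2a portion, against 57.5 to 83.6 in WT livers and 67.2 in DKO replicate 4, while the alpha bars range from 52.1 to 122 over all livers.

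Tubb4b was the leading beta isotype of WT livers with 59.7 ± 4.18% of the summed level (SD, n = 4), and Tubb2a made up 20.3 ± 3.95%. In SKO livers Tubb2a made up 73.6 ± 3.33% and Tubb4b 19.3 ± 1.74%, although the level of Tubb4b itself was higher than in WT livers. Tubb2a made up 76.9 ± 2.92% in DKO replicates 1 to 3 (SD, n = 3) and 27.8% in DKO replicate 4, where Tubb4b had 47.9%. Among alpha tubulins, the share of Tuba4a was 52.6 ± 1.45% in WT and 37.8 ± 1.50% in SKO livers, and that of Tuba1c was 33.3 ± 0.720% and 42.7 ± 4.19%. In DKO livers Tuba4a had 42.3% and Tuba1c 39.3% (mean, n = 4), and without replicate 4 it was 39.0% and 42.8% (n = 3). The ranges of the levels of these 2 genes overlapped in SKO livers.

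Across all genes, the comparison of SKO with WT livers covered 14261 genes, of which 4576 (32.1%) were past the threshold, an adjusted p under 0.05 by the quasi-likelihood test of edgeR and the method of Benjamini and Hochberg. Of all genes, 16.7% were past it and higher in SKO livers and 15.4% lower. All 10 members passed the filter on low counts, and 6 were past this threshold, all 6 of them higher in SKO livers (Tubb2a, Tubb2b, Tubb4b, Tubb5, Tuba1b and Tuba1c). Tubb2b passed the filter through the SKO livers only, since 0 of 4 WT livers reached its minimum, so its place among the 6, and its rank by fold change, had to follow and is no test. The same 6 had SKO livers all above the WT livers, beside 16.4% of all genes. The median log2 fold change of the members was 1.13 and that of all genes 0.03. Ranked by log2 fold change, Tubb2b stood at 4 and Tubb2a at 32 among the 14261 genes. As the members were named with this comparison known, nothing is read from these counts.

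In DKO against WT livers, 9 members passed the filter and 3 of them, Tubb2a, Tubb5 and Tuba1b, were past the threshold, beside 10.5% of 14448 genes past it in either direction with 6.06% higher and 4.39% lower. Tubb5 and Tuba1b were the 2 members whose groups did not overlap, beside 8.05% of all genes in that direction. Their log2 fold changes were smaller than those of Tubb2a, whose estimate of 4.56 had a standard error of 0.82. Without DKO replicate 4, 7 of 10 members were past the threshold and higher, beside 35.9% of 14634 genes past it (18.4% higher and 17.5% lower), and these were the 6 named for SKO livers, Tubb2b again through the KO livers, plus Tubb6. In that fit the log2 fold change of Tubb2a was 4.96 (standard error 0.26), that of Tubb2b 7.30 (0.44), that of Tubb4b 1.25 (0.13) and that of Tuba1c 0.90 (0.16). With and without DKO replicate 4 the log2 fold changes of Tuba4a were 0.04 and 0.10, and those of Tuba1a were −0.05 and −0.13. Leaving out another liver gave 3 members without WT replicate 3, 1 without WT replicate 1 or without DKO replicate 1, 2 or 3, and 0 without WT replicate 2 or 4. The count of all genes fell as well, to 4.81% without WT replicate 3 and to 1.63 to 2.73% without any 1 of the other 6 livers. Both KO genotypes share their WT livers in these comparisons, so the 2 sets of fold changes are not independent.

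In DKO against SKO livers, none of the 10 members was past the threshold, beside 3 of 14363 genes (0.0209%) in edgeR's test. At an unadjusted p under 0.05 the count of members was 0, beside 6.49% of all genes, and DESeq2's Wald test called 0 members, beside 0.504%. The log2 fold changes of the members were all below 0, from −0.05 for Tubb6 to −0.54 for Tubb2b, with a median of −0.32 against 0.01 over all genes. Without DKO replicate 4 the median was −0.11, 2 of 10 were above 0, and again 0 members were past the threshold (none at an unadjusted p under 0.05 either), beside 0.103% of all genes. The estimate for Tubb2a was −0.26 with a standard error of 0.69, and 0.14 with a standard error of 0.26 without that liver, so the precision allows a sizeable difference in either direction with all livers and a smaller one without replicate 4.

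**Figure D3:**
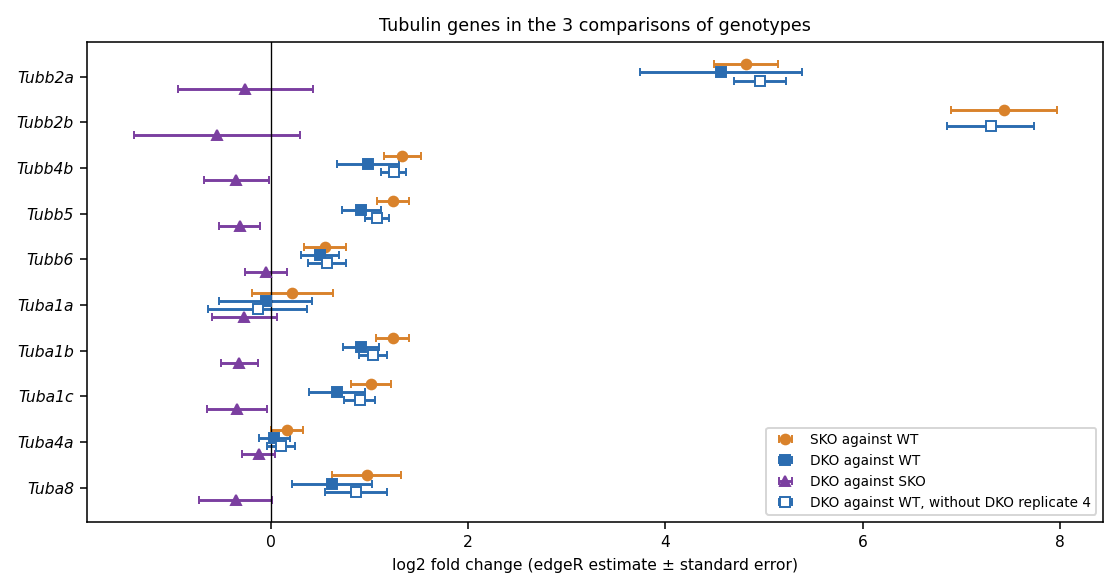
Log2 fold change (edgeR estimate ± standard error) of each tubulin in SKO against WT (circles), DKO against WT with all livers (filled squares) and without DKO replicate 4 (open squares), and DKO against SKO (triangles). Tubb2a and Tubb2b stand at 4.56 to 7.43 in the comparisons with WT, the other members at −0.13 to 1.34, and DKO against SKO at −0.54 to −0.05; Tubb2b has no point for DKO against WT with all livers because it failed the filter on low counts there.

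The other tubulin genes were low, or lower in the KO livers. Of 10 of them, 3 passed the filter in SKO against WT. Tubg1, the gamma tubulin of the centrosome that nucleates microtubules, had 28.3, 30.0, 30.0 and 26.0 CPM in WT and 18.4, 20.3, 16.4 and 21.8 CPM in SKO livers. It fell by 0.56 on the log2 scale (standard error 0.13, adjusted p = 0.0059, edgeR), and in DKO livers, which had 21.4, 17.7, 17.6 and 17.8 CPM, it fell by 0.61 (standard error 0.11, adjusted p = 0.0165, edgeR), or by 0.59 without replicate 4 (0.12, adjusted p = 0.00276). For Tubg1, DKO replicate 4 lay with the other KO livers, unlike for Tubb2a. Tubd1 (delta) and Tube1 (epsilon), tubulins of the centriole, had log2 fold changes of −0.39 and −0.37 in SKO livers with adjusted p of 0.269 and 0.556 in edgeR's test. Tubb1, Tubb3, Tubb4a and Tubg2 had at most 9 counts in any liver, and Tuba3a, Tuba3b and Tubal3 had 0 counts in all 12.

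Genes of tubulin folding comprise prefoldin, which hands nascent tubulin over, the ring-shaped chaperonin CCT, and the cofactors that join alpha to beta. In SKO livers 10 of 21 rose and 0 fell, beside 16.7% of all genes that rose and 15.4% that fell, and the median log2 fold change was 0.39, beside 0.03 over all genes. Arl2, a small GTPase that works with the cofactors, had 7.62 ± 0.600 CPM (SD, n = 4) in WT and 21.8 ± 6.22 in SKO livers, and its log2 fold change was 1.53 (standard error 0.20, adjusted p = 0.000148, edgeR). The chaperonin subunits Cct3 and Cct2 rose by 0.84 (standard error 0.13, adjusted p = 0.000581, edgeR) and 0.69 (0.14, adjusted p = 0.00228) on the log2 scale, and Tbcc, a cofactor, by 0.72 (0.16, adjusted p = 0.0045). In DKO livers Arl2 and Tbcc rose, by 0.91 (adjusted p = 0.0354, edgeR) and 0.75 (adjusted p = 0.0333), which makes 2 of 21 higher and 0 lower, beside 6.06% of all genes that rose. Without DKO replicate 4 it was 9 of 21 and 0 fell, beside 18.4% and 17.5% of all genes, with Arl2 at 1.10, Tbcc at 0.86 and Cct3 at 0.70. Arl2 stood at 16.0, 16.2, 16.8 and 8.12 CPM in DKO replicates 1 to 4, so replicate 4 again lay near WT.

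Of 12 genes of tubulin mRNA decay, the feedback that Ttc5 starts by binding the new protein and that Scaper and the CCR4-NOT deadenylase carry out, 0 rose and 2 fell in SKO livers, beside 16.7% and 15.4% of all genes. These were Cnot6, by 0.60 on the log2 scale (standard error 0.15, adjusted p = 0.00926, edgeR), and Cnot8, by 0.51 (0.13, adjusted p = 0.00879). In DKO livers Cnot6 fell by 0.57 (0.15, adjusted p = 0.0465, edgeR) and Cnot8 had a log2 fold change of −0.28 (adjusted p = 0.157). Without DKO replicate 4 both fell, Cnot6 by 0.70 (0.12, adjusted p = 0.00126, edgeR) and Cnot8 by 0.36 (0.11, adjusted p = 0.0246), so that the list held 0 higher and 1 lower of 12 with all livers, beside 6.06% and 4.39% of all genes, and 0 and 2 without that one, beside 18.4% and 17.5%. Ttc5 had 8.16 to 13.6 CPM in WT livers, 10.6 to 12.5 in SKO livers and 9.48 to 13.3 in DKO livers, and Scaper had 7.97 to 10.3, 8.01 to 10.5 and 6.82 to 10.7 CPM. The levels of these 2 genes overlapped between all genotypes.

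Of 16 tested genes whose enzymes modify tubulin, 1 was past the threshold and higher and 1 lower in SKO livers, beside 16.7% and 15.4% of all genes, with a median log2 fold change of 0.05. Ttll11, a polyglutamylase that lengthens side chains on tubulin tails, had 0.706 ± 0.300 CPM (SD, n = 4) in WT and 3.07 ± 0.358 in SKO livers, and DKO livers had 1.03 to 2.95 CPM. Only 2 of 4 WT livers reached the minimum of the filter on low counts, so Ttll11 passed it through the livers in which it was high, and its values are given without a test. Ttll5, another member of the same enzyme family, fell by 0.65 in SKO livers (0.22, adjusted p = 0.0420, edgeR) and had a log2 fold change of −0.18 in DKO livers (adjusted p = 0.570), or −0.31 without replicate 4 (adjusted p = 0.226). In DKO against WT the list held 1 gene higher, which is Ttll11, and 0 lower, beside 6.06% and 4.39% of all genes, and 2 higher (Ttll11 and Ttl, a tubulin tyrosine ligase) and 1 lower without replicate 4, beside 18.4% and 17.5%.

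Of 28 tested genes of microtubule-associated proteins, 7 rose and 1 fell in SKO livers, beside 16.7% and 15.4% of all genes, with a median log2 fold change of 0.21. Mapre3, an end-binding protein of growing tips, had 42.7, 42.9, 45.7 and 48.7 CPM in WT livers and 136, 162, 93.3 and 134 CPM in SKO livers, and its log2 fold change was 1.56 (standard error 0.16, adjusted p = 3.63e-05, edgeR). In DKO livers it had 134, 133, 108 and 48.2 CPM, so that DKO replicate 4 lay inside the WT range. Map1s, which links microtubules to autophagy, rose by 1.35 (0.24, adjusted p = 0.00128, edgeR), Map7, which recruits kinesin to microtubules, by 1.10 (0.13, adjusted p = 7.93e-05), and Tubgcp2, of the gamma tubulin ring complex, by 0.76 (0.16, adjusted p = 0.00325). In DKO livers Mapre3, Map1s and Map7 rose, 3 of 28 beside 6.06% of all genes. Without replicate 4 the count was 8 of 28 with 1 lower, beside 18.4% and 17.5% of all genes, and the log2 fold changes of these 3 were 1.48, 1.53 and 1.32.

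Of 29 tested genes of kinesin, dynein and dynactin subunits, 10 were past the threshold and higher and 2 lower in SKO livers, beside 16.7% and 15.4% of all genes, with a median log2 fold change of 0.23. Dync1i1, a dynein intermediate chain known from neurons, had 0 to 0.222 CPM in WT and 0.608 to 1.03 CPM in SKO livers. It passed the filter on low counts through the SKO livers only, since 0 of 4 WT livers reached its minimum, so its place among the 10 is no test. Dync1li1, a dynein light intermediate chain, rose by 0.85 (0.14, adjusted p = 0.000687, edgeR). The kinesin gene Kif13b fell by 0.94 (0.19, adjusted p = 0.00265, edgeR) and the kinesin light chain gene Klc4 by 0.67 (0.14, adjusted p = 0.00346). In DKO livers Kif13b fell by 0.80 (0.12, adjusted p = 0.00973, edgeR), or by 0.87 without replicate 4 (0.11, adjusted p = 0.000174). Klc4 had a log2 fold change of −0.43 there (adjusted p = 0.225, edgeR), or −0.71 without replicate 4 (adjusted p = 0.000884). That of Dync1li1 was 0.69 (adjusted p = 0.078, edgeR), or 0.88 without replicate 4 (adjusted p = 0.000347). The list held 1 gene higher and 1 lower of 28, beside 6.06% and 4.39% of all genes, or 9 and 2 of 28 without DKO replicate 4, beside 18.4% and 17.5%.

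Over these 6 lists together, 35 of 109 tested genes (32.1%) were past the threshold in SKO livers, 28 higher (25.7%) and 7 lower (6.42%), beside 32.1% of all genes, 16.7% higher and 15.4% lower. Without Dync1i1 and Ttll11, which passed the filter through the SKO livers, 33 of 107 (30.8%) were past it, 26 higher (24.3%) and 7 lower (6.54%). Without WT replicate 1, 24 were past it, 18 higher and 6 lower. In DKO livers it was 10 of 108 (9.26%), 7 higher and 3 lower, beside 10.5% of all genes, and 35 of 108 without replicate 4, beside 35.9%. Without Ttll11 it was 9 of 107 (8.41%), 6 higher and 3 lower, and 34 of 107 (31.8%), 27 higher and 7 lower, without replicate 4. Without any 1 of the other 7 livers, 1 to 3 microtubule genes were past the threshold in DKO against WT, so the calls named for DKO livers rest on which livers were included. In DKO against SKO livers it was 0 of 110 in edgeR's test, beside 0.0209% of all genes. At an unadjusted p under 0.05 it was 3, beside 6.49%, and by DESeq2 it was 0, beside 0.504%.

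**Figure D4:**
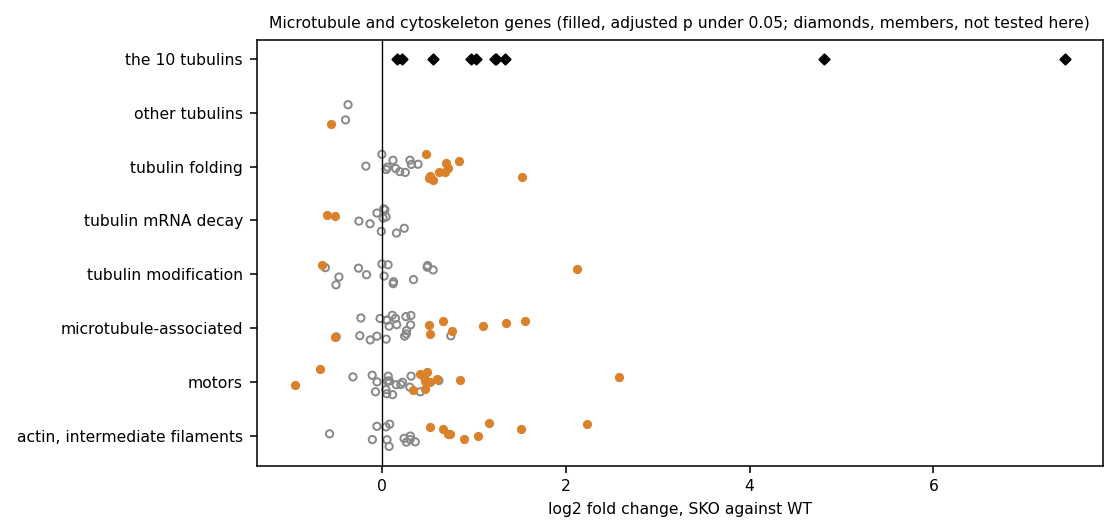
Log2 fold change in SKO against WT livers of every tested gene of the microtubule lists and of a list of actin and intermediate filament genes (filled, adjusted p under 0.05 in edgeR's test; open, not past it), with the 10 tubulins as black diamonds for reference. Tubb2a (4.82) and Tubb2b (7.43) lie to the right of every gene of the lists, where the highest are Dync1i1 (2.58), Actg1 (2.23) and Ttll11 (2.13); Dync1i1 and Ttll11 passed the filter on low counts through the SKO livers.

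Among 21 genes of actin and intermediate filaments, listed as the other part of the cytoskeleton, 9 rose and 0 fell in SKO livers, beside 16.7% and 15.4% of all genes, with a median log2 fold change of 0.31, beside 0.03. Actg1, the cytoplasmic gamma actin, had 93.8, 80.9, 81.2 and 84.0 CPM in WT and 332, 419, 385 and 449 CPM in SKO livers, and rose by 2.23 on the log2 scale (standard error 0.14, adjusted p = 1.24e-06, edgeR). In DKO livers Actg1 had 372, 439, 490 and 102 CPM (log2 fold change 2.06, standard error 0.40, adjusted p = 0.0182, edgeR), or a log2 fold change of 2.36 without replicate 4 (0.12, adjusted p = 5.14e-07). The tropomyosin genes Tpm4 and Tpm1 rose by 1.52 (0.19, adjusted p = 0.000149, edgeR) and 1.17 (0.13, adjusted p = 6.56e-05) in SKO livers, and Capg, an actin-capping protein, by 1.05 (0.30, adjusted p = 0.0200). In DKO livers 3 of 21 rose, namely Actg1, Tpm4 and Tpm1, beside 6.06% of all genes. Without replicate 4 the list held 6 higher and 1 lower, beside 18.4% and 17.5%. Capg had a log2 fold change of 0.21 in DKO livers (adjusted p = 0.649, edgeR), or 0.05 without replicate 4 (adjusted p = 0.922).

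Markers of other liver cells were counted because several tubulins are expressed widely. The 6 hepatocyte markers summed to 69884 to 87685 CPM in WT livers, 38005 to 65884 in SKO livers and 40384 to 90760 in DKO livers, where the highest value is DKO replicate 4, and 3 of 6 fell in SKO livers, beside 15.4% of all genes. In DKO against WT 1 of 6 fell, beside 4.39%, and 3 of 6 without DKO replicate 4, beside 17.5%. Of 11 tested macrophage markers, 2 were past the threshold and higher in SKO livers, namely Cd68 and Gpnmb, and Gpnmb passed the filter on low counts through the SKO livers only, so its place is no test; of all genes 16.7% were higher. Together, the 12 markers summed to 229 to 466 CPM in WT livers, 238 to 545 in SKO livers and 144 to 467 in DKO livers. The highest DKO value is that of replicate 4, and the median of the DKO livers was 217 CPM, below the WT range. Gpnmb had 0 to 0.509 CPM in WT livers, 26.3 to 54.2 in SKO livers and 12.5, 9.72, 23.3 and 0.595 in DKO livers, and Clec4f, which marks Kupffer cells, had 66.5 to 115 CPM in WT and 52.1 to 101 in SKO livers. In DKO against WT the list held 1 marker higher (Gpnmb, for which the same limit holds) and 1 lower of 11, beside 6.06% and 4.39% of all genes, and without DKO replicate 4 it held 2 higher and 7 lower, beside 18.4% and 17.5%, with a median log2 fold change of −1.07.

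The 8 stellate cell markers summed to 178 to 201 CPM in WT and 232 to 325 in SKO livers. Of the 8, 1 rose, Dcn, beside 16.7% of all genes. Dcn alone had 106 to 131 CPM in WT and 139 to 208 in SKO livers, while the other 7 overlapped, with 70.1 to 78.4 and 61.7 to 117 CPM. In DKO livers they summed to 213 to 282 CPM (271 in replicate 4). The 6 endothelial markers summed to 153 to 333 CPM in WT and 196 to 269 in SKO livers. Of these 6, 0 were past the threshold, beside 32.1% of all genes. The 5 markers of dividing cells summed to 3.00 to 5.78 CPM in WT and 1.73 to 2.82 in SKO livers. Of 3 tested, Birc5 alone was past the threshold, lower in SKO livers, beside 15.4% of all genes that were lower. Birc5 passed the filter through the WT livers, with 1 of 4 SKO livers at its minimum. The other 4 overlapped, with 1.50 to 3.33 CPM in WT and 1.45 to 2.24 in SKO livers. In the same groups the 4 cholangiocyte markers summed to 6.40 to 12.1 and 2.54 to 3.60, and the 6 lymphocyte markers to 7.31 to 17.9 and 5.37 to 16.3. Of 3 tested cholangiocyte markers 1 fell in SKO livers, beside 15.4% of all genes, and 1 of 3 in DKO livers, beside 4.39%. Without DKO replicate 4 it was 1 of 4, beside 17.5%. Each time this was Sox9, by 1.87 on the log2 scale in SKO livers (adjusted p = 0.0011, edgeR). It fell by 1.71 in DKO livers (adjusted p = 0.0195, edgeR), or by 1.52 without replicate 4 (adjusted p = 0.00336). No marker was at 0 in all livers of a genotype. The part of these markers in the tubulin levels was not tested.

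The genes nearest to Tubb2a in their profile over the 12 livers were found by the root mean square difference of log2 CPM relative to the WT mean, among 9774 genes of mean CPM at least 5. They were Dusp8 (0.60), a phosphatase of MAP kinases, Cgref1 (0.61), Cidec (0.63), a protein of lipid droplets, Apoa4 (0.65), an apolipoprotein, and Gm15441 (0.65). Each of these 5 was high in SKO livers and DKO replicates 1 to 3 and low in WT livers, and in DKO replicate 4 Apoa4 had 506 CPM beside a mean of 619 in WT and 11761 in SKO livers. Tubb2b was farther from Tubb2a, at 1.35, and Tubb4b was at 2.77. The genes nearest to Tuba4a were 1110004F10Rik (0.10), Ap3s2 (0.11), Ppp1r21 (0.13), Ndufa8 (0.13) and Zrsr2 (0.13), which differed little between genotypes.

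Around Tubb2a and Tubb2b, 6 other genes within 200 kb were tested in SKO against WT, of which 2 rose and 2 fell. The shares over all genes, for this region and the next, were 16.7% higher and 15.4% lower in SKO livers. They were 6.06% and 4.39% in DKO livers, and 18.4% and 17.5% without DKO replicate 4. Serpinb6a rose by 0.56 (adjusted p = 0.0140, edgeR) and Psmg4 by 0.80 (adjusted p = 0.0129) on the log2 scale, while Nqo2 fell by 1.55 (adjusted p = 1.01e-05) and Bphl, which ends next to Tubb2a, by 0.98 (adjusted p = 0.000348). The other 2, Ripk1 and Slc22a23, were not past the threshold (adjusted p = 0.356 and 0.197, edgeR). In DKO against WT the 6 had adjusted p from 0.142 (Slc22a23) to 0.586 (Ripk1) in edgeR's test and log2 fold changes from −0.70 to 0.40. Without DKO replicate 4, Nqo2 fell by 1.47 (adjusted p = 6.31e-06, edgeR) and Bphl by 0.94 (adjusted p = 0.000151), and 0 of the 6 rose. Around Tuba1a, Tuba1b and Tuba1c, 9 others were tested, of which Spats2 rose by 0.68 (adjusted p = 0.0151, edgeR) and 5730414N17Rik fell by 0.81 (adjusted p = 0.0133). Between DKO and WT, Kmt2d, a histone methyltransferase, rose by 0.55 (adjusted p = 0.0476, edgeR) and 0 fell, and Spats2 had a log2 fold change of 0.10 (adjusted p = 0.837). Without replicate 4, Kmt2d rose by 0.65 (adjusted p = 0.00168, edgeR), 0 fell, and Spats2 was at 0.31 (adjusted p = 0.192).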

How the data were processed

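RNA of 12 liver samples from fasted mice was sequenced, and each library was placed in the group its label names, also where the Atf3 counts do not check that label. The count table that the authors deposited gives reads per Ensembl gene, not normalized, with a length for each gene. The submitters' processing notes name HISAT2 and GRCm38/mm10, but only 2.76% of 52073 gene IDs shared with GRCm38 have the same coordinates there, and none of the 10 members does, so coordinates are given as deposited and never mixed with those of sequences from GRCm38. The counting program, its strand setting and the treatment of reads that fit several genes are not given in the sources used here. The authors also deposited FPKM values and tables of their own comparisons (log2 fold changes and p-values), which were not used.

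Pairs of genotypes were fitted over their 8 livers with edgeR 4.0.16 in R 4.3.3 (filterByExpr, TMM, quasi-likelihood test, two-sided, Benjamini-Hochberg adjustment over all genes tested, threshold 0.05). DESeq2 1.42.0 and the settings of the closing section were alternatives. The code was tested on simulated data. Members, gene lists and tests were chosen with earlier results of these data known. Named are the 10 members, genes that check labels, in each list up to 4 genes past the threshold with the largest absolute log2 fold change in SKO against WT, all other tubulins, defining markers, and the 5 nearest profiles of the most abundant beta and alpha member. Cd68, Gpnmb, Clec4f, Dcn, Birc5 and Sox9 among the markers, Ttl, Ttc5 and Scaper, and genes within 200 kb of members were named after their values were seen. Livers with the same replicate number were treated as unpaired. Correlations of same-numbered deviations from the group means were −0.34 to 0.09 and 0 were over 0.1. With 4 livers a group this gives no sign of pairing but cannot exclude it. CPM of single livers uses TMM over all 12 livers. Protein sequences were not used here.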

Additional observations from a re-analysis of the deposited data

Results flagged for a closer look

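Among 36 groups of 4 livers (the 10 members and the summed beta and alpha levels in each of the 3 genotypes), 2 held a liver whose gap to its nearest neighbour exceeded Dixon's 95% critical value, where chance gives about 1.8. Tubb2b in SKO replicate 2 had 38.5 CPM, while the other SKO livers had 13.6 to 16.6, a gap of 0.880 of the range. Tubb5 in DKO replicate 4 had 38.6 CPM, while the other DKO livers had 65.2 to 70.1, a gap of 0.845 of the range. The same DKO liver had the lowest level of the genotype for 8 of the 10 members, and SKO replicate 2 had the highest SKO level for 9 of them.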

How the results depend on the processing

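The alternatives were DESeq2's Wald test, RLE normalization, no filter on low counts, all 12 livers in one fit and the replicate number as a block. Others left out the livers with Xist counts, used a yes-or-no covariate that marks those livers, or left out each liver. All 435 refits of the members' log2 fold changes, over 29 fold changes, kept the called fold changes in direction; uncalled ones near 0, such as Tuba1a (−0.02 to 0.78 in SKO against WT without each liver in turn), could change sign. In SKO against WT, the counts past the threshold moved by less than 1.5 times, but those of microtubule genes that were higher fell from 28 to 18 without WT replicate 1. Without each liver in turn they were 3617 to 4711 of all genes, 6 to 7 members and 24 to 36 genes of the microtubule lists.

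In DKO against WT, where all 4 DKO livers gave 1510 genes, 3 members and 10 microtubule genes, the counts depended on DKO replicate 4. Without it, which is also the fit without livers with Xist counts, they were 5253, 7 and 35. With the Xist covariate, which here marks that liver alone, they were 5168, 6 and 35. Without each liver in turn they ranged over 244 to 5253 genes, 0 to 7 members and 1 to 35 microtubule genes. Without any 1 liver other than DKO replicate 4 they were 244 to 719 genes, 0 to 3 members and 1 to 3 microtubule genes, with the lowest of genes and members without WT replicate 2. DESeq2 gave 2509 genes and 5 members, and the fit without a filter gave 1680 of 28551 genes and 5 members. Replicate numbers gave no sign of pairing, and the replicate block gave 691 genes, 3 members and 2 microtubule genes here.

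In DKO against SKO, with 3 genes, the count was 87 by DESeq2, 35 without a filter and 0 with the replicate block. It was 21 without livers with Xist counts, 9 with the Xist covariate and 0 to 15 without each liver in turn. Each alternative called 0 members and 0 microtubule genes. With the replicate block, SKO against WT had 4111 genes, 6 members and 32 microtubule genes. Without division by gene length, the share of Tubb2a among beta counts was 15.0% in WT and 65.9% in SKO livers, against 20.3% and 73.6%. Without each liver in turn the share was 18.8 to 21.7% in WT livers, 72.4 to 75.1% in SKO livers and 59.8 to 76.9% in DKO livers. The cause of these shifts was not tested. Depth limits Tuba1a, with 13 to 66 counts, and Tubb2b in WT livers, with 0 to 3.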
